A study of Homo sapiens with 60 samples.

Results

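The genes described here were the 4 inhibitor of differentiation genes ID1, ID2, ID3 and ID4, and 5 genes of BMP-SMAD feedback, namely SMAD6, SMAD7, SMAD9, BAMBI and BMP4. They were taken by symbol from a table of 60675 genes, in which each of the 9 symbols had 1 row, and all 9 were among the 17517 genes with enough counts to be tested. The list was proposed with results of these data known, with no contrast or threshold named, so the members' levels, fold changes and calls are given as a description and without p-values. SW1783, an established human astrocytoma line, was exposed over 24 h to water extracts of single herbs or herbal formulas, and RNA was sequenced from 60 libraries in 25 groups. The preparations were Cinnamomi Cortex (Cinnamon), Paeoniae Radix (Paeonia), Samul-tang (Samul), Rehmanniae Radix Preparata (Rehmannia), Sagunja-tang (Sagunja), Cnidii Rhizoma (Cnidium), Angelicae Gigantis Radix (Angelica) and Astragali Radix (Astragalus). Each was given at 20, 100 and 500 µg/mL, called the low, medium and high dose, against a vehicle of 0.1% DMSO per the sample labels. The labels give no DMSO percentage for the extract libraries, so whether their solvent matched the vehicle is not known. A group had 3 libraries, except that Samul had 2 at each dose and Angelica and Paeonia had 1 at each dose. Samul-tang is known as a formula of Rehmannia, Angelica, Cnidium and Paeonia roots.

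BMP ligands are secreted proteins that bind paired receptor kinases, and the receptors phosphorylate SMAD1, SMAD5 and SMAD9, which enter the nucleus with SMAD4 and switch on target genes. ID genes are among the best known direct targets of this pathway: their proteins have a helix-loop-helix but no DNA-binding region, and hold bHLH transcription factors away from DNA, which delays differentiation in many cell types. SMAD6, SMAD7 and BAMBI are induced by the pathway and dampen it, and in the astrocyte lineage BMP signalling is known for favouring astrocyte over neuron and oligodendrocyte fates.

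Libraries held 20604804 to 29609809 expected counts on 22725 to 24004 genes. Of 10 astrocyte and glioma markers, VIM (4661 to 6035 CPM, counts scaled to a common library size), CD44 (1998 to 3006 CPM), SOX9 and SLC1A3 were present throughout, while GFAP, S100B, AQP4, ALDH1L1 and SOX2 stayed at or under 0.321 CPM in every library. The vehicle libraries carry a sample code of their own and each pair of extracts shares another code, so code set and treatment cannot be told apart against vehicle, whereas the high and low doses of an extract lie within 1 set. The labels do not say whether replicates were separate cultures, so the tests measure only the spread between these samples. Sagunja low replicate 1 stood apart from its group: its log2 values differed from those of the other replicates with an SD of 1, against at most 0.436 in groups other than Sagunja low. It enters the spread that all groups share, and 23 further member calls are made without it, which are given beside the results they touch.

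Upstream sequence is shown for the most and the least abundant ID gene, ID1 and ID4, which both fell with Cinnamon and whose windows overlap no annotated exon. ID1 lies on chromosome 20 (31605283 to 31606515, plus strand) and ID4 on chromosome 6 (19837386 to 19840684, plus strand) in GRCh38. The stretches end at or just before the annotated start and come from RefSeq on GRCh38.p14, at chr20:31605039-31605282 for ID1 and chr6:19837120-19837369 for ID4, 5′ to 3′ on the plus strand. Capitals mark matches to CCAAT (or ATTGG, its other strand), to TATAAA (or TTTATA), to the E-box CANNTG, which bHLH factors bind, or to GGCGCC, a GC-rich element bound by BMP-activated SMADs.
ID1: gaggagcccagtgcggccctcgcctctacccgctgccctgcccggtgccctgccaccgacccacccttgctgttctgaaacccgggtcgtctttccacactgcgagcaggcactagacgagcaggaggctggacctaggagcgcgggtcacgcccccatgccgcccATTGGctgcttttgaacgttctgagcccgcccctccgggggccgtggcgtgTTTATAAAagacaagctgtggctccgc
ID4: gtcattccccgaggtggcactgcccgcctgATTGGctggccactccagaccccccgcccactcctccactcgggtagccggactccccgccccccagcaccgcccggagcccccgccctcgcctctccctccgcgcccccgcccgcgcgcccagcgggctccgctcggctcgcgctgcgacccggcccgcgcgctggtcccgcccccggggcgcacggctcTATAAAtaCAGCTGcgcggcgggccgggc
Both stretches held 1 CCAAT match and a TATAAA match, which in ID1 overlapped one on the other strand. ID4 also held 1 E-box next to its TATAAA, ID1 held none, and neither held GGCGCC. Among 34943 RefSeq promoters, the 250 bases upstream held CCAAT in 32.04%, TATAAA in 10.75%, CANNTG in 61.83% and GGCGCC in 16.35%. In the same search of the other members, GGCGCC stood 3 times in the window of BAMBI and 1 time in a window of BMP4. All these matches are letters in the window and were not tested as binding sites, and sequence farther upstream was not searched.

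In the same build, with GENCODE gene bounds, ID2 lies on chromosome 2 (8678845 to 8684453, plus strand) and ID3 on chromosome 1 (23557918 to 23559794, minus strand). SMAD6 lies on chromosome 15 (66702228 to 66782848, plus strand), SMAD7 on chromosome 18 (48919853 to 48952052, minus strand) and SMAD9 on chromosome 13 (36844831 to 36920765, minus strand). BAMBI lies on chromosome 10 (28677342 to 28682939, plus strand) and BMP4 on chromosome 14 (53949736 to 53958761, minus strand). The values are sums over all reads assigned to a gene, without a split by exon or transcript.

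Cinnamon lowered all 4 ID genes at the medium and high doses, and at the high dose their levels were 2.82-fold to 4.54-fold below vehicle. ID1 had 238, 238 and 244 CPM in vehicle, 205, 213 and 240.0 at the low dose, 146, 157 and 179.8 at the medium dose and 86.5, 82.5 and 84.4 at the high dose. ID3 had 182, 182 and 184 CPM in vehicle, 144, 131 and 138 at the low dose, 105, 91.6 and 95.6 at the medium dose and 65.1, 57.4 and 55.2 at the high dose. No library of one Cinnamon dose overlapped the next dose for either gene, and at the low dose ID3 was already below every vehicle library while ID1 overlapped them. In whole RNA from a culture, fewer cells of a type and less RNA per cell cannot be told apart.

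The less abundant ID2 and ID4 showed the same order. ID2, the member best known in neural progenitors and oligodendrocyte precursors, had 25.3, 21.8 and 23.4 CPM in vehicle, 17.7, 20.2 and 18.7 at the low Cinnamon dose, 12.2, 14.4 and 14.3 at the medium dose and 7.75, 8.82 and 7.77 at the high dose. ID4, an ID protein linked to stem-like states in glioma, had 2.42, 3.23 and 2.94 CPM in vehicle, 2.81, 2.26 and 3.18 at the low dose, 1.69, 1.26 and 1.45 at the medium dose and 0.639, 0.63 and 0.588 at the high dose. The 3 high-dose values of ID4 rest on 17, 15 and 14 counts, and its low-dose libraries overlapped vehicle. ID2 overlaps ID2-AS1 and ID4 overlaps LNC-LBCS on the opposite strand. The sources used here do not state whether counting used strand, so reads of these neighbours may be included.

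Against vehicle at the high dose, Cinnamon gave a log2 fold change of -1.49 ± 0.13 (SE) for ID1, -1.52 ± 0.11 for ID2, -1.61 ± 0.09 for ID3 and -2.18 ± 0.17 for ID4. A gene is called here when edgeR's quasi-likelihood test, adjusted over all 17517 genes, gives an adjusted p under 0.05. By that rule 8 of the 9 members were called lower at the high Cinnamon dose, where 10.9% of all genes tested were called lower and 22.8% in either direction. The members' median log2 fold change was -1.13, and that of all genes was 0.00. At the medium dose 7 members were called, all lower, against 2.29% of all genes in either direction, and at the low dose 1 was called, ID3 (log2 fold change -0.40 ± 0.09), against 1.06%. The low-dose ID3 call was lost without vehicle replicate 1 (-0.40) or Cinnamon low replicate 2 (-0.36), and the medium-dose ID1 call (-0.57 ± 0.13) without Cinnamon medium replicate 1 (-0.50) or 2 (-0.55). The medium-dose SMAD7 call was lost without any 1 vehicle replicate or without Cinnamon medium replicate 2 (-0.36 to -0.32). It was also lost with scaling by library size alone or without the low-count filter. Without Sagunja low replicate 1, ID2 (-0.32) and SMAD7 (-0.34) were also called at the low Cinnamon dose.

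**Figure D1:**
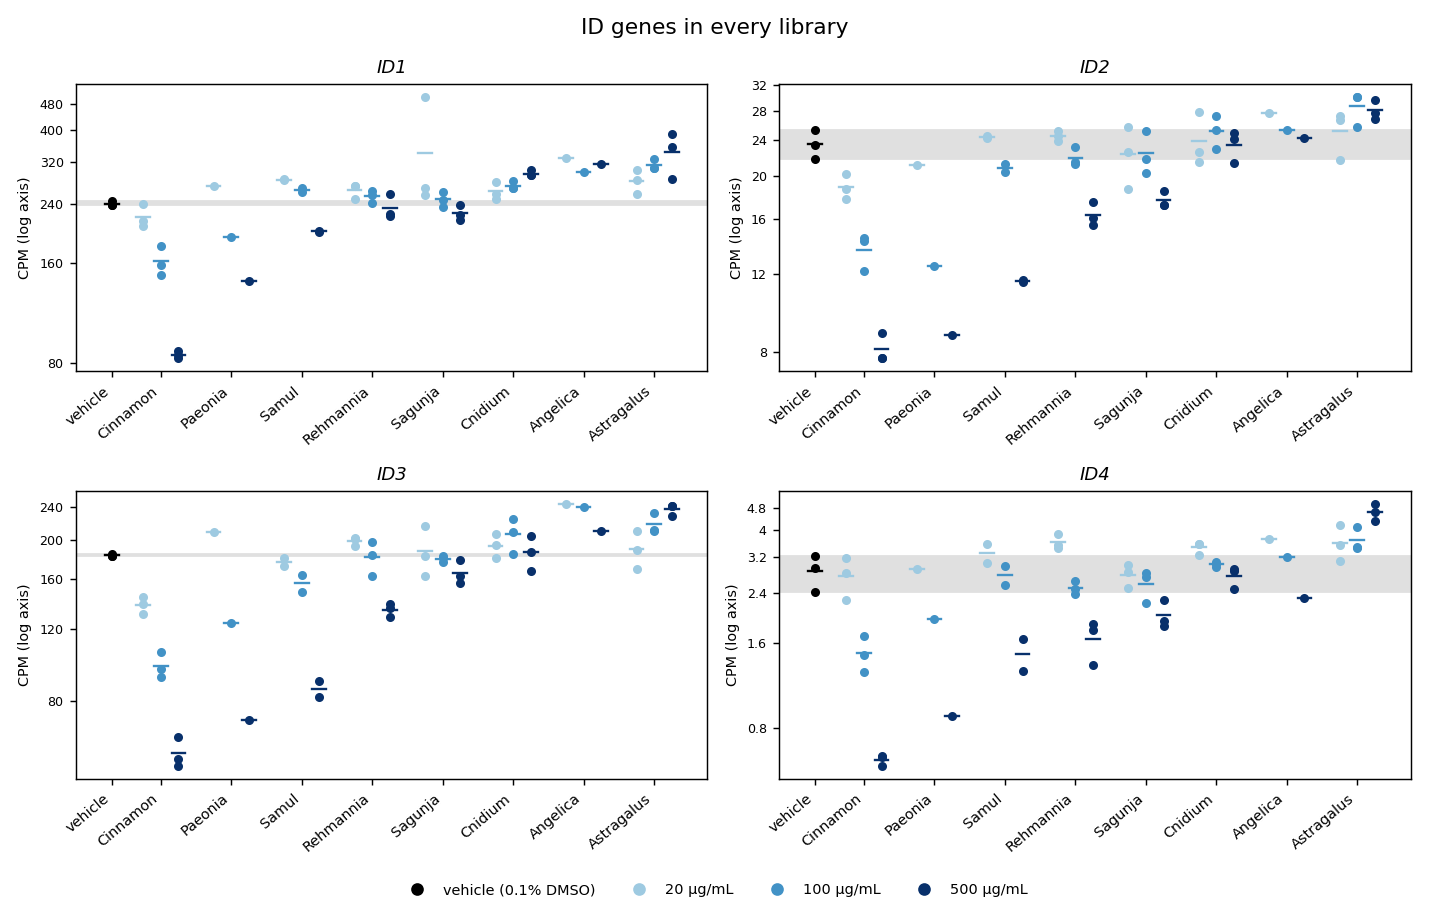
ID1, ID2, ID3 and ID4 in every library, in CPM on log axes. Points are libraries, short lines are group means, colours give the dose, and the grey band is the range of the 3 vehicle libraries. Cinnamon, Paeonia and Samul step down with dose in all 4 panels, and the high Cinnamon dose is lowest in each.

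Paeonia, with 1 library a dose and therefore no test, had the second lowest level of each of the 4 ID genes at the high dose. ID1 had 272, 191 and 141 CPM at the low, medium and high dose, and ID3 had 209, 124 and 71.5 CPM. ID2 had 21.1, 12.5 and 8.76 CPM, and ID4 had 2.92, 1.95 and 0.88 CPM, the last from 24 counts with a Poisson 95% interval of 0.564 to 1.31 CPM that covers counting error only. At the medium and high doses each ID gene lay below all 3 vehicle libraries, and at the low dose ID1 and ID3 lay above them.

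On the log2(CPM + 1) scale, which understates the change of low genes, the high Paeonia library differed from the vehicle mean by -0.76 for ID1, -1.33 for ID2, -1.34 for ID3 and -1.04 for ID4. Of all 17517 genes, 21 (0.12%) were at least 2-fold lower in that library on the same scale, and ID2, ID3 and ID4 were 3 of them. SMAD6 followed with -0.83, while BAMBI, at 13.1 CPM, lay inside the vehicle range. The difference has no replicate check.

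Samul lowered ID2, ID3 and ID4 at the high dose by more than ID1. ID3 had 182, 182 and 184 CPM in vehicle, 172 and 180.4 at the low dose, 148 and 163 at the medium dose and 81.6 and 89.3 at the high dose. ID2 had 24.4 and 24.5 CPM at the low dose, 20.4 and 21.2 at the medium dose and 11.7 and 11.5 at the high dose. ID1 had 286 and 283, 261 and 267, and 199 and 198 CPM at the low, medium and high dose. All 3 genes stepped down with dose without overlap, and the low-dose libraries lay above vehicle for ID1, among it for ID2 and below it for ID3. ID4 had 3.07 and 3.56, 2.57 and 2.99, and 1.65 and 1.27 CPM at the low, medium and high dose, and only the high dose lay below vehicle.

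Against vehicle, the high Samul dose gave -1.01 ± 0.12 for ID2, -1.08 ± 0.10 for ID3 and -0.95 ± 0.16 for ID4, and -0.26 ± 0.14 for ID1, which was not called. Both high-dose ID1 libraries lay below vehicle, and without Sagunja low replicate 1 the ID1 value was -0.27 ± 0.08 and was called. With SMAD6 and SMAD7, 5 members were called, all lower, where 1.85% of all genes were called lower and 4.13% in either direction. By edgeR 0 members were called at the medium or low Samul dose, where 1.75% and 2.62% of all genes were; 2 members at the medium dose and 1 at the low dose had an unadjusted p under 0.05, and DESeq2 called 0. Without Sagunja low replicate 1, BAMBI was called higher at the medium dose (0.31), and BAMBI (0.29) and ID1 (0.24) at the low dose.

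Rehmannia gave a smaller difference of the same kind. At the high dose ID2 had 15.4, 16.0 and 17.5 CPM, against 25.3, 21.8 and 23.4 CPM in vehicle, and ID3 had 128, 135 and 138 CPM, against 182, 182 and 184 CPM. ID4 had 1.77, 1.86 and 1.34 CPM at that dose, against 2.42, 3.23 and 2.94 CPM in vehicle, while ID1 had 220.1, 257 and 224 CPM, against 238, 238 and 244 CPM. High-dose libraries lay wholly below vehicle for ID2, ID3 and ID4 and on both sides of it for ID1.

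The log2 fold changes at the high Rehmannia dose were -0.52 ± 0.10 for ID2, -0.44 ± 0.09 for ID3, -0.77 ± 0.14 for ID4 and -0.03 ± 0.13 for ID1. These 3 members were called lower, where 0.999% of all genes were called lower and 2.37% in either direction. At the medium and low Rehmannia doses edgeR called 0 members, with 0.719% and 0.999% of all genes called. At an unadjusted p under 0.05 these were 0 and 2 members, and DESeq2 called 0.

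Of the other Samul components, Cnidium and Angelica had values closer to vehicle or above it. Paeonia, described above, had each ID gene below vehicle at the medium and high doses. At the high Cnidium dose ID3 had 167, 186 and 204 CPM, ID2 had 21.4, 24.9 and 24.1 CPM and ID4 had 2.48, 2.86 and 2.91 CPM, each overlapping vehicle. For Cnidium edgeR called 0 members at the low, medium or high dose, where 0.382%, 0.297% and 1.35% of all genes were called, with 1 member under an unadjusted p of 0.05 at each dose and 0 called by DESeq2. ID1 at the high Cnidium dose had 292, 293 and 304 CPM, all above vehicle, and its value of 0.31 ± 0.13 became 0.30 ± 0.07 and was called without Sagunja low replicate 1. In the single Angelica libraries ID1 had 329, 299.5 and 316 CPM and ID3 had 244, 241 and 210.1 CPM at the low, medium and high dose, all above vehicle. ID2 lay inside or above the vehicle range in these 3 libraries, and ID4 lay below it at the high dose alone, with 2.31 CPM. The formula and its components were each dosed by weight of extract, so the amount of a component in Samul was not matched to its single extract.

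Astragalus went the other way, with 3 ID genes called higher at the high dose. At the high dose ID1 had 285, 357 and 390.4 CPM, against 238, 238 and 244 CPM in vehicle, and ID3 had 242, 228 and 242 CPM, against 182, 182 and 184 CPM. ID4 had 4.62, 4.93 and 4.32 CPM at that dose, against 2.42, 3.23 and 2.94 CPM in vehicle, its highest group mean in the study. All high-dose libraries lay above vehicle, with log2 fold changes of 0.53 ± 0.13 for ID1, 0.39 ± 0.09 for ID3 and 0.70 ± 0.13 for ID4. ID2 had 29.57, 26.85 and 27.73 CPM at that dose, also above every vehicle library, and was not called.

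Without replicate 3 of that dose the ID1 fold change was 0.42, and without replicate 2 it was 0.50, and ID1 was called in neither case. With SMAD7, which was lower, 4 members were called at the high Astragalus dose, against 4.45% of all genes in either direction. At the medium dose edgeR called 0 (3.94% of all genes), with 5 members under an unadjusted p of 0.05 and 2 called by DESeq2, ID1 and BAMBI. Without Sagunja low replicate 1, edgeR called 4 at the medium dose, all higher: ID1 (0.39), ID2 (0.28), ID3 (0.25) and BAMBI (0.31). ID2 was then also called at the high dose (0.25) and ID1 at the low dose (0.22). At the low dose 1 was called, SMAD7 (-0.29 ± 0.09, against 3.67% of all genes), and that call was lost under 33 of 60 alternatives, among them each vehicle replicate left out.

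Sagunja lowered ID2 and ID4 at the high dose, by less than Cinnamon did, while ID1 (-0.08 ± 0.13) and ID3 (-0.13 ± 0.09) were not called. ID2 had 18.5, 17.2 and 17.2 CPM at that dose, against 25.3, 21.8 and 23.4 CPM in vehicle, a log2 fold change of -0.40 ± 0.10. ID4 had 2.27, 1.92 and 1.84 CPM, against 2.42, 3.23 and 2.94 CPM, a log2 fold change of -0.49 ± 0.14. ID4 was not called without vehicle replicate 2 (-0.40) or Sagunja high replicate 2 (-0.46) or 3 (-0.43), or without the low-count filter. At the low dose ID1 was called higher (0.52 ± 0.13), but its libraries had 504, 267 and 255 CPM, and without replicate 1, which stood apart from its group, the value was 0.12 and was not called.

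In all, 6 members were called at the high Sagunja dose, 1 higher and 5 lower, against 17.0% of all genes in either direction. At the medium dose 2 were called, BAMBI higher and SMAD7 lower (6.31% of all genes), and at the low dose 3 (22.1%), ID1, SMAD7 and BAMBI. All 3 low-dose calls were lost when the fit held just the groups being compared, and the medium-dose SMAD7 call was lost without vehicle replicate 2 (-0.32) or Sagunja medium replicate 1 (-0.25). All these comparisons with vehicle share the same 3 vehicle libraries.

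ID1 and ID3 did not move by the same factor. The ratio of ID1 to ID3 counts, taken within a library and so free of its scaling, was 1.31 to 1.33 in vehicle. At the high dose it was 2.22 and 2.44 in Samul, 1.97 in Paeonia and 1.62 to 1.90 in Rehmannia. Lying above vehicle did not set these apart, since at the high dose the ratio was also 1.49 to 1.75 in Cnidium, 1.504 in Angelica and 1.34 to 1.38 in Sagunja, and it was 1.41 to 1.52 over the low and medium Astragalus doses. In Cinnamon it was 1.42 to 1.74 at the low dose, 1.39 to 1.88 at the medium dose and 1.33 to 1.53 at the high dose. Sagunja low replicate 1 had 2.33, against 1.47 and 1.57 in the other Sagunja low libraries. The ratio of ID2 to ID3 was 0.120 to 0.139 in vehicle, 0.129 and 0.143 at the high Samul dose, 0.123 at the high Paeonia dose, 0.119 to 0.126 at the high Rehmannia dose and 0.119 to 0.154 at the high Cinnamon dose, with overlap or nearly so in each case. It lay below vehicle at the high Sagunja dose (0.0966 to 0.118) and in the low and medium Paeonia libraries (0.101 each). The low, medium and high Angelica libraries were also below vehicle, with 0.113, 0.105 and 0.116. These ratios show unequal differences between the genes and were not tested.

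**Figure D2:**
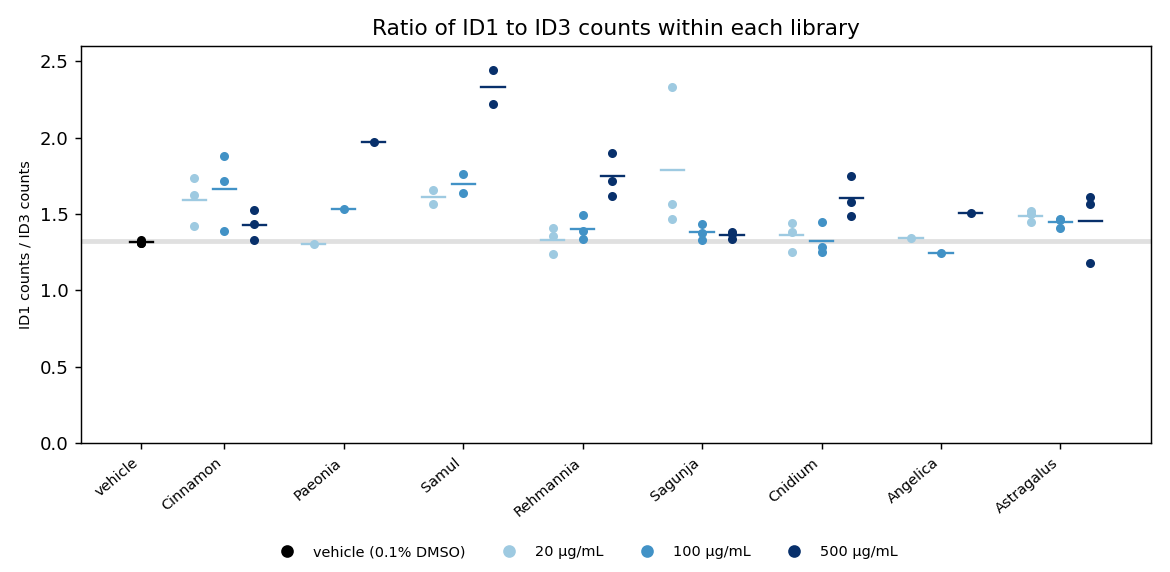
Ratio of ID1 counts to ID3 counts within each library, on a linear axis from 0. Points are libraries, short lines are group means and the grey band is the vehicle range. The 2 high-dose Samul libraries are at 2.22 and 2.44, against 1.31 to 1.33 in vehicle.

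Among the inhibitory SMADs, SMAD6, which blocks BMP receptors and SMAD1, came closest to the ID genes. SMAD6 had 12.7, 13.7 and 12.9 CPM in vehicle, 10.5, 10.8 and 10.9 at the low Cinnamon dose, 8.97, 8.11 and 7.90 at the medium dose and 5.15, 6.59 and 6.01 at the high dose. It had 13.0, 10.4 and 6.93 CPM in the low, medium and high Paeonia libraries, and 8.01 and 9.17 CPM at the high Samul dose. Every one of these Cinnamon libraries lay below vehicle, as did both Samul libraries and the medium and high Paeonia libraries. The log2 fold changes against vehicle were -1.13 ± 0.11 for high Cinnamon, -0.59 ± 0.11 for high Samul, -0.39 ± 0.10 for high Sagunja and -0.34 ± 0.10 for high Rehmannia, the last not called. The Samul call was lost without Samul high replicate 1, where the fold change was -0.51, and the Rehmannia value was called without Sagunja low replicate 1, Sagunja medium replicate 1 or Astragalus medium replicate 1.

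SMAD7, which inhibits both the TGF-beta and the BMP branch, was below vehicle in nearly all treated groups and followed dose less closely. It had 20.8, 22.1 and 21.0 CPM in vehicle, 16.7, 15.8 and 18.2 at the low Cinnamon dose, 16.7, 15.9 and 17.2 at the medium dose and 13.9, 12.8 and 12.6 at the high dose. At the high dose it had 15.7, 16.6 and 18.2 CPM in Astragalus, where ID1, ID3 and ID4 were higher, and 14.4, 16.0 and 18.5 CPM in Sagunja. The low and medium Cinnamon doses overlapped each other, and all libraries named here lay below vehicle.

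The log2 fold changes of SMAD7 at the high dose were -0.69 ± 0.09 for Cinnamon, -0.42 ± 0.10 for Samul, -0.37 ± 0.09 for Sagunja and -0.33 ± 0.09 for Astragalus. The Astragalus call was lost without vehicle replicate 1 (-0.34) or 2 (-0.31) or Astragalus high replicate 1 (-0.28) or 2 (-0.32). It was also lost with scaling by library size alone or without the low-count filter. The Samul call was lost without Samul high replicate 1 (-0.34). In the group order by mean, vehicle was 24 from the lowest of 25 groups for SMAD7, and only the single low-dose Angelica library was higher. Between high and low dose of an extract, SMAD7 was called in Cinnamon alone. Its means at the low, medium and high dose were 16.4, 16.6 and 16.3 CPM in Sagunja and 17.25, 19.2 and 16.8 CPM in Astragalus.

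SMAD9, the third BMP-activated SMAD, was low throughout and its values spread more. It had 3.19, 3.88 and 3.14 CPM in vehicle, 2.32, 3.26 and 2.80 at the low Cinnamon dose, 1.73, 1.92 and 2.29 at the medium dose and 1.69, 2.14 and 1.39 at the high dose. The medium and high doses overlapped each other and lay below vehicle, with log2 fold changes of -0.77 ± 0.19 and -0.95 ± 0.19. The medium-dose call was lost without vehicle replicate 2 (-0.67) or Cinnamon medium replicate 1 (-0.68) or 2 (-0.75). SMAD9 was called in no other comparison with vehicle. At the low Sagunja dose it had 1.51, 3.51 and 3.12 CPM, the lowest again in replicate 1, and at the high Astragalus dose 3.88, 4.10 and 4.68 CPM, at or above the vehicle range (0.32 ± 0.17, not called).

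BAMBI, a decoy receptor without a kinase, did not follow the ID genes. At the high Cinnamon dose it had 11.2, 13.9 and 12.8 CPM, against 12.2, 13.1 and 13.0 CPM in vehicle, and its log2 fold change was -0.00 ± 0.10. In Sagunja BAMBI was called higher at each dose and had 21.2, 15.3 and 16.7 CPM at the low dose, 19.3, 17.4 and 17.8 at the medium dose and 17.8, 16.5 and 16.7 at the high dose. All 9 Sagunja libraries lay above vehicle, and the log2 fold changes were 0.48 ± 0.10, 0.52 ± 0.10 and 0.43 ± 0.10 at the low, medium and high dose, with no order by dose. Without Sagunja low replicate 1 the low-dose value was 0.32 and still called. BAMBI also lay above every vehicle library in Samul, the other extract of that set, with 14.4 to 17.0 CPM over its 3 doses. It did so at the medium Astragalus dose too, with 14.9 to 16.9 CPM. None of these groups was called against vehicle by edgeR with all 54 libraries in the fit. The single Angelica libraries, with 14.5 to 16.8 CPM, and the single low Paeonia library, with 15.1 CPM, were also above vehicle and were not tested.

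BMP4, the ligand in the list, was lower in high Cinnamon and high Sagunja. It had 6.24, 7.10 and 6.72 CPM at the high Cinnamon dose and 7.07, 6.64 and 6.83 CPM at the high Sagunja dose, against 10.1, 9.21 and 10.5 CPM in vehicle. Both high-dose groups lay below every vehicle library, with log2 fold changes of -0.56 ± 0.11 and -0.52 ± 0.11. At the high Samul dose BMP4 had 9.74 and 9.81 CPM, inside the vehicle range, beside the lower ID2, ID3 and ID4 there. At the high Rehmannia dose it had 8.24, 8.84 and 7.88 CPM, all below vehicle, with a log2 fold change of -0.24 ± 0.11 that was not called. The single Paeonia and Angelica libraries of the high dose had 8.54 and 8.04 CPM.

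**Figure D3:**
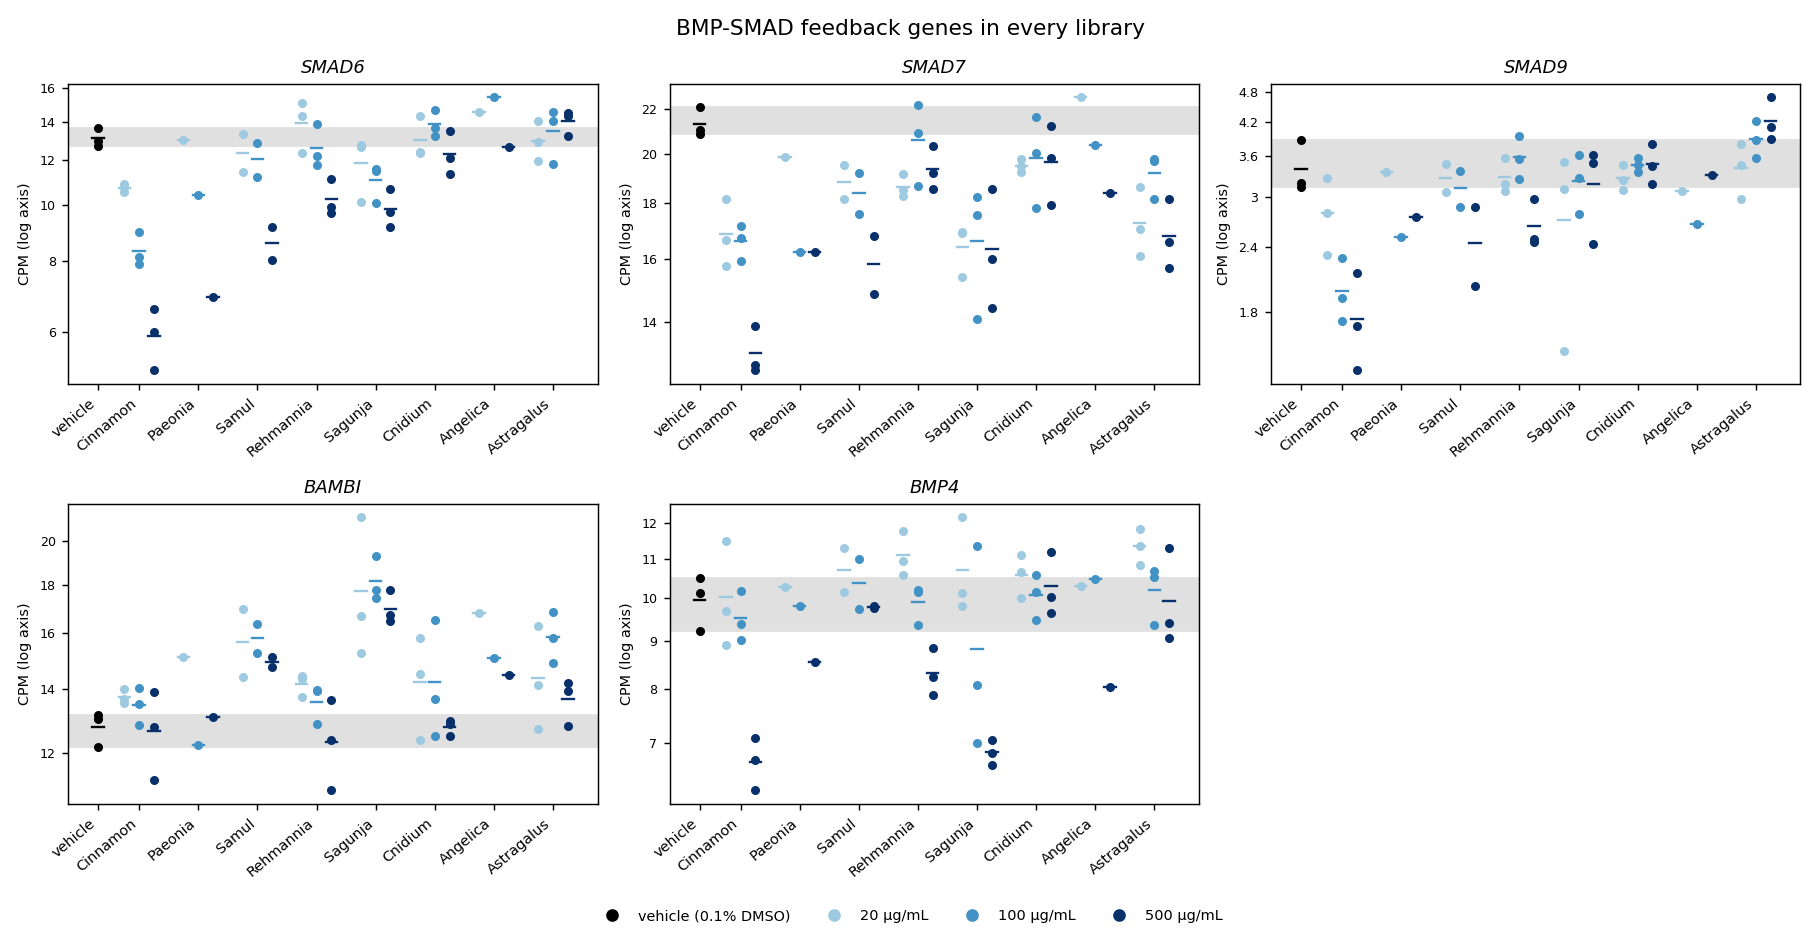
SMAD6, SMAD7, SMAD9, BAMBI and BMP4 in every library, in CPM on log axes, drawn as for the ID genes. SMAD6 steps down with Cinnamon and Paeonia, SMAD7 lies below vehicle in most groups, and BAMBI is highest in the 3 Sagunja groups.

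Within a set, where the vehicle libraries do not enter, the high and low doses of Cinnamon differed in 8 members, all called lower, against 21.6% of all genes in either direction. The log2 differences of high against low were -1.37 ± 0.13 for ID1, -1.21 ± 0.11 for ID2, -1.21 ± 0.09 for ID3, -2.13 ± 0.17 for ID4 and -0.86 ± 0.11 for SMAD6, while BAMBI had -0.12 ± 0.10 and was not called. The SMAD9 call was lost without Cinnamon low replicate 2 or Cinnamon high replicate 3. With 1 library left out in turn, its value was -0.85 to -0.55. Rehmannia had 4 members called lower (ID2, ID3, ID4 and SMAD6), where 0.36% of all genes, 63 in number, were called lower and 0.805% in either direction. Samul had the same number called lower among 54 genes, or 0.308%, with 0.736% called in either direction. ID1 in Samul had -0.52 ± 0.16 for high against low without overlap, and BMP4 in Rehmannia -0.41 ± 0.11, neither called, and both were called without Sagunja low replicate 1 (-0.51 and -0.41).

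In the Rehmannia libraries the log2 differences of high against low were -0.59 ± 0.10 for ID2, -0.57 ± 0.09 for ID3, -1.12 ± 0.14 for ID4 and -0.44 ± 0.10 for SMAD6. In the Samul libraries they were -1.08 ± 0.13 for ID2, -1.05 ± 0.11 for ID3, -1.18 ± 0.18 for ID4 and -0.53 ± 0.13 for SMAD6. The SMAD6 call was lost in Rehmannia without high-dose replicate 1 or 3 or low-dose replicate 2 or 3 (-0.42 to -0.38), and in Samul without any 1 of the 4 libraries (-0.63 to -0.41). Both SMAD6 calls were also lost with scaling by library size alone. The Samul SMAD6 call was lost too without the low-count filter, or when the fit held just the groups being compared. Sagunja had 4 called lower (20.5% of all genes), of which ID1 had -0.60 ± 0.13, but -0.21 and no call without Sagunja low replicate 1. The ID2 call (-0.34 ± 0.10) was lost without Sagunja low replicate 2 (-0.23) or Sagunja high replicate 3 (-0.32). The ID4 call (-0.48 ± 0.14) was lost without Sagunja high replicate 2 or 3 or Sagunja low replicate 2 (-0.44 to -0.41), or without the low-count filter. All 4 were lost when the fit held just the groups being compared, and SMAD6 (-0.36) was called without Sagunja low replicate 1. By edgeR 0 members were called for Astragalus and Cnidium, with 0.28% and 0.228% of all genes called. At an unadjusted p under 0.05 these were 3 members (ID1, ID3 and ID4, higher) and 1 (ID4, lower), and DESeq2 called ID3 alone, in Astragalus. Without Sagunja low replicate 1, edgeR called ID1 (0.29) and ID3 (0.33) in Astragalus.

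The dose effect of the 2 extracts of a set was compared directly, as high minus low of one extract minus high minus low of the other. Cinnamon minus Astragalus was called for 6 members, all lower, against 14.4% of all genes, with SMAD7 (-0.32) and BMP4 (-0.39) added without Sagunja low replicate 1, and Samul minus Sagunja for 2, ID2 and ID3, against 2.89%. Rehmannia minus Cnidium was called for 0 members by edgeR, against 0.04% of all genes, with 5 members under an unadjusted p of 0.05 and ID3 called by DESeq2. In that difference ID2 had -0.56 ± 0.14 and ID3 -0.51 ± 0.12, and both were called without Sagunja low replicate 1 (-0.56 ± 0.13 and -0.51 ± 0.11).

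**Figure D4:**
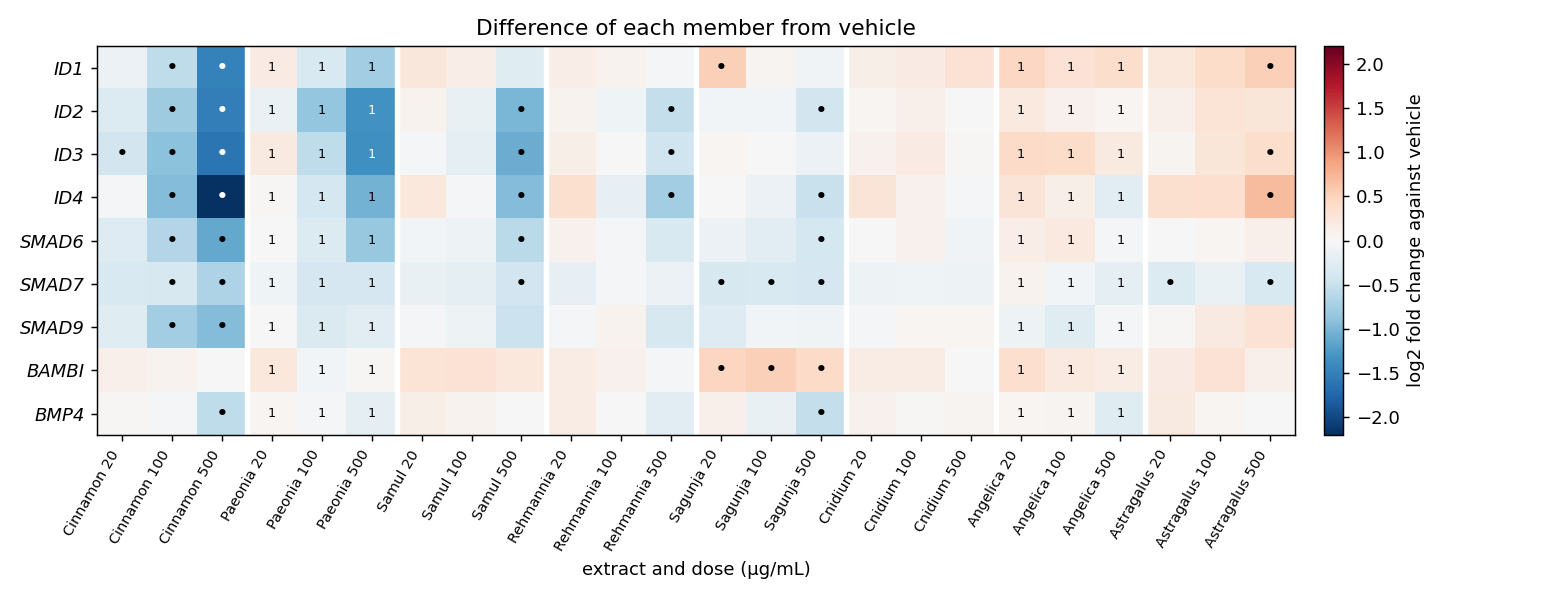
Log2 fold change of each of the 9 genes against vehicle for every extract and dose (µg/mL), blue for lower and red for higher. A dot marks a called value, and 1 marks a single library, shown as a log2 ratio of CPM + 1 with no test. ID2, ID3 and ID4 are darkest at the high doses of Cinnamon, Paeonia and Samul, and the BAMBI row is reddest for Sagunja.

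Ordered by mean over the 25 groups, the ID genes shared their lowest groups. For ID3 the order from the lowest was high Cinnamon (59.3 CPM), high Paeonia (71.5), high Samul (85.4), medium Cinnamon (97.5), medium Paeonia (124) and high Rehmannia (134), with no overlap between neighbours up to there. For ID1 it was high Cinnamon (84.4 CPM), high Paeonia (141), medium Cinnamon (161), medium Paeonia (191) and high Samul (199), again without overlap. For ID2 and ID4 high Cinnamon, high Paeonia and high Samul came first, and ID2 in high Paeonia (8.76 CPM) lay within the range of high Cinnamon.

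Farther up the order the groups ran together. Of 24 neighbouring pairs of groups, 16 overlapped for ID1, 17 for ID2, 16 for ID3, 16 for ID4, 18 for SMAD6, 20 for SMAD7, 23 for SMAD9, 22 for BAMBI and 23 for BMP4. A group of 1 library has no spread of its own, so its place in the order is that of 1 value. Per kilobase of exon, vehicle levels were 194.9 CPM for ID1, 102 for ID3, 10.7 for ID2, 5.52 for BAMBI, 4.23 for SMAD7, 3.22 for BMP4, 1.53 for SMAD6, 1.22 for ID4 and 0.595 for SMAD9.

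Across the 19 groups with at least 2 libraries, group means of log2(CPM + 1) of ID2 and ID3 had a Pearson r of 0.98, and those of ID2 and SMAD6 an r of 0.97. BAMBI had an r of -0.19 to 0.35 with the other members. The genes most alike by this measure, among those of at least 5 CPM, were ANKRD1 for ID1 (0.95), SAMD11 for ID2 (0.97), RHOBTB3 and ATOH8 for ID3 (0.95 each), SAMD11 for ID4 (0.94) and SAMD11 for SMAD6 (0.98). For SMAD7 it was DLX2 (0.95), for SMAD9 RHOBTB3 (0.92), for BAMBI CENPU (0.91) and for BMP4 MEST (0.90). All points share the libraries and their scaling, and the correlations are a description.

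Of 82 other genes of the pathway in 8 lists, 64 were tested, and 26 of them (40.6%) were called at the high Cinnamon dose, 6 higher and 20 lower, against 22.8% of all genes. The lists were drawn up with earlier results of these data known. Genes named from them were picked for a large change among called genes. The adjusted p-values printed with them are therefore a description and no independent test. At the high dose 12 (18.8%) were called for Samul, 1 of them higher, against 4.13% of all genes, and 6 (9.38%) for Rehmannia, 1 of them higher, against 2.37%. Sagunja had 19 (29.7%), 6 of them higher, against 17.0%. Cnidium had 3 (4.69%), against 1.35%, and Astragalus 9 (14.1%), against 4.45%, all lower. Some lists below had a share called at the high Cinnamon dose near that of all genes. These were receptors (2 of 8 tested), SMAD transducers (1 of 5) and intracellular negative regulators (3 of 11).

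Among 12 other BMP-responsive genes, all tested, 4 were called lower with high Cinnamon and 3 with high Samul. Of all genes, 10.9% and 1.85% were called lower at those doses. ATOH8, a bHLH factor induced by BMP signalling, had 7.42 ± 1.05 CPM at the high Cinnamon dose, against 20.9 ± 0.73 CPM in vehicle (SD, n = 3 each), and fell by 1.47 ± 0.13 (log2 ± SE, adjusted p = 2.91e-12, edgeR's quasi-likelihood test). It had 9.62 ± 0.36 CPM at the high Samul dose (SD, n = 2) and fell by 1.10 ± 0.14 (adjusted p = 8.37e-07 by edgeR), and at the high Rehmannia dose 14.1 ± 0.36 CPM (SD, n = 3) with a fall of 0.55 ± 0.12 (adjusted p = 0.00481 by edgeR). DLX2, a homeobox gene of forebrain development, fell by 1.10 ± 0.11 with high Cinnamon (adjusted p = 1.59e-10 by edgeR) and by 0.61 ± 0.12 with high Samul (adjusted p = 0.00108 by edgeR). HEY1, a Notch and BMP target, fell by 0.61 ± 0.12 with high Cinnamon (adjusted p = 0.000225 by edgeR). UNC5B, a netrin receptor, fell with high Samul by 1.04 ± 0.17 (adjusted p = 0.00011 by edgeR).

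Of the BMP ligands other than BMP4, 4 of 12 were tested, and 2 rose with high Cinnamon and 2 with high Sagunja. Of all genes, 22.8% and 17.0% were called in either direction at those doses. BMP2 had 3.25 ± 0.40 CPM at the high Sagunja dose, against 0.889 ± 0.063 CPM in vehicle (SD, n = 3 each), a rise of 1.88 ± 0.19 (log2 ± SE, adjusted p = 2.61e-10 by edgeR). At the high Cinnamon dose BMP2 had 1.55 ± 0.046 CPM (SD, n = 3), a rise of 0.81 ± 0.20 (adjusted p = 0.00196 by edgeR). GDF5, a ligand of joint and cartilage development, rose by 0.87 ± 0.27 with high Cinnamon (adjusted p = 0.0136 by edgeR).

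Of 10 receptors and co-receptors, 8 were tested, and 1 rose and 1 fell with high Cinnamon. ACVR1, a type I receptor, rose by 0.45 ± 0.09 (adjusted p = 0.000126 by edgeR) and ENG, the co-receptor endoglin, fell by 0.53 ± 0.08 (adjusted p = 8e-07 by edgeR). Of the 5 SMAD transducers, SMAD4 rose by 0.19 ± 0.07 with high Cinnamon (adjusted p = 0.0388 by edgeR), with libraries that overlapped vehicle. The other 4 transducers, SMAD1, SMAD2, SMAD3 and SMAD5, were not called at that dose.

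Of 13 secreted antagonists, 10 were tested, and 3 fell and 1 rose with high Cinnamon, where 22.8% of all genes were called in either direction. NOG, encoding noggin, fell by 1.29 ± 0.29 (log2 ± SE) with high Cinnamon (adjusted p = 0.000991 by edgeR) and by 1.02 ± 0.28 with high Rehmannia (adjusted p = 0.0428 by edgeR), at vehicle levels near 1.24 CPM. FST, encoding follistatin, fell by 1.05 ± 0.29 with high Cinnamon (adjusted p = 0.00566 by edgeR). BMPER, which binds BMPs outside the cell, rose by 0.91 ± 0.08 with high Sagunja (adjusted p = 3.02e-12 by edgeR). Of 11 intracellular negative regulators, all tested, 3 fell with high Cinnamon, where 10.9% of all genes were called lower and 22.8% in either direction. Among them were the SMAD co-repressor SKIL, which fell by 1.11 ± 0.15 (adjusted p = 3.82e-07 by edgeR), and the ubiquitin ligase SMURF2, by 0.45 ± 0.09 (adjusted p = 0.000148 by edgeR).

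Of 10 bHLH partners and targets of ID proteins, 5 were tested, and OLIG1, OLIG2, NEUROG2 and NEUROD1 were among those with too few counts. CDKN1A, a cell-cycle inhibitor that E proteins activate and ID proteins oppose, had 40.6 ± 1.40 CPM at the high Cinnamon dose, against 21.5 ± 0.16 CPM in vehicle (SD, n = 3 each), and rose by 0.93 ± 0.09 (log2 ± SE, adjusted p = 2.89e-10 by edgeR). TCF4, an E protein, fell by 0.57 ± 0.07 with high Cinnamon (adjusted p = 6.64e-09 by edgeR). Among 9 TGF-beta and SMAD3 targets, 8 were called lower with high Cinnamon, 7 with high Sagunja, 5 with high Samul and 4 with high Astragalus. In either direction, 22.8%, 17.0%, 4.13% and 4.45% of all genes were called in these comparisons. Called lower were 10.9% of all genes for high Cinnamon and 1.85% for high Samul. CCN2, a matricellular gene, had 55.5 ± 4.41 CPM at the high Cinnamon dose, against 190.7 ± 3.24 CPM in vehicle (SD, n = 3 each), and fell by 1.77 ± 0.12 (log2 ± SE, adjusted p = 2.75e-15 by edgeR). CCN2 also fell with high Astragalus, where ID1, ID3 and ID4 were higher, by 0.70 ± 0.12 (adjusted p = 9.92e-05 by edgeR).

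**Figure D5:**
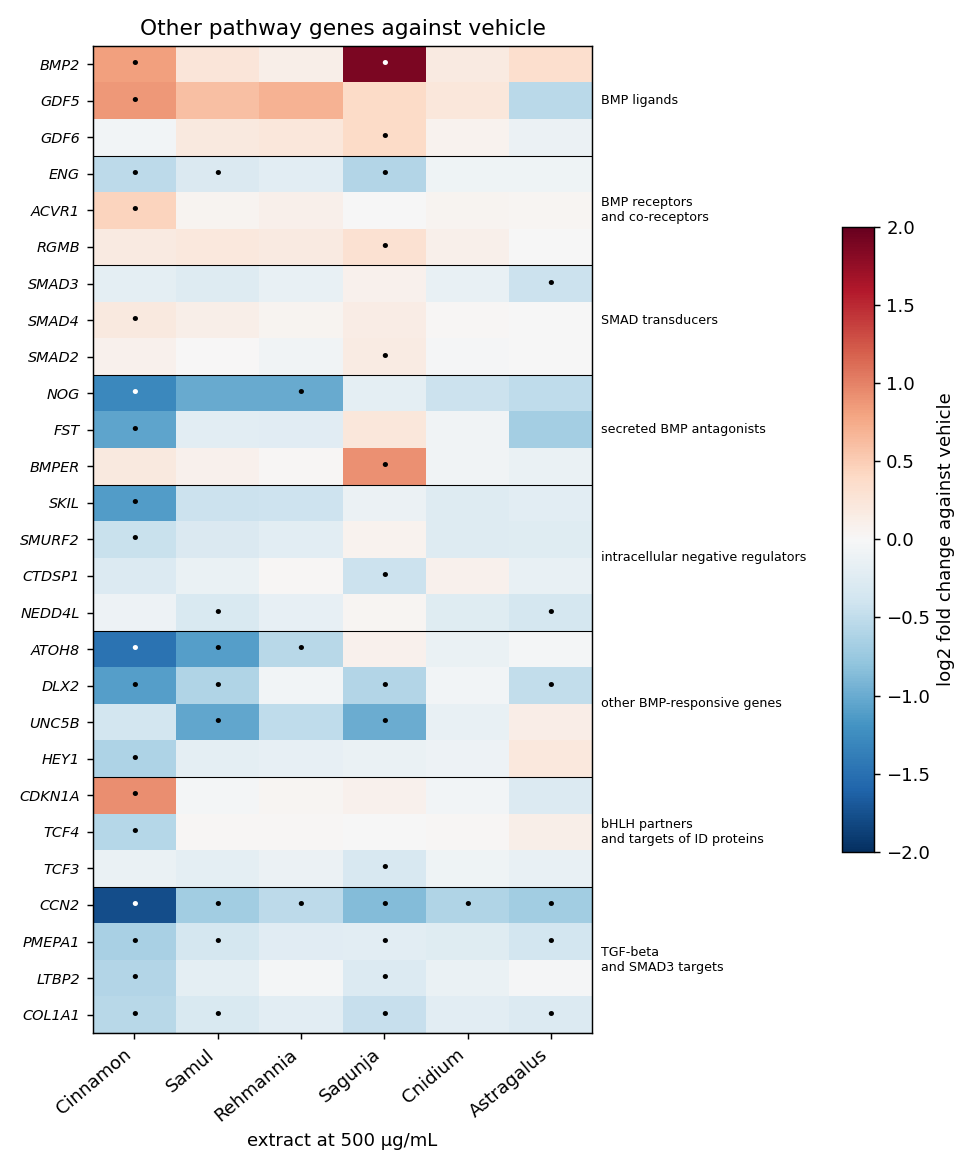
Log2 fold change against vehicle at 500 µg/mL of 27 other pathway genes chosen by rule, grouped by role, for the 6 extracts with replicates. Blue is lower, red is higher and a dot marks an adjusted p under 0.05 in edgeR's test. ATOH8 is blue for Cinnamon (-1.47), Samul (-1.10) and Rehmannia (-0.55), and BMP2 is darkest red for Sagunja (1.88).

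Markers of other cell types moved with the high Cinnamon dose. The summed epithelial markers had 84.9 to 91.3 CPM there, against 244 to 246 CPM in vehicle, almost all of it from KRT8 and KRT18, with EPCAM and CDH1 at most 0.16 CPM in any library. The leukocyte sum was 4.21 to 4.45 CPM, against 8.65 to 9.14 CPM in vehicle, almost all of it from PTPRC, with CD3E and AIF1 at 0 in 56 of 60 libraries each. The neuron sum was 43.7 to 49.1 CPM at the high Cinnamon dose, against 59.1 to 61.2 CPM in vehicle. The oligodendrocyte sum was 7.03 to 8.32 CPM at the high Cinnamon dose, against 5.76 to 6.03 CPM in vehicle, the astrocyte and glioma sum 7825 to 8433 CPM, against 8692 to 8943 CPM, and the endothelial sum 0.882 to 1.34 CPM, against 0.286 to 0.999 CPM. The high Samul dose had an epithelial sum of 216 to 227 CPM, a leukocyte sum of 10.2 to 10.6 CPM, an oligodendrocyte sum of 6.47 to 8.92 CPM, a neuron sum of 52.4 to 62.6 CPM, an endothelial sum of 1.42 to 1.69 CPM and an astrocyte and glioma sum of 7852 to 8134 CPM. The high Rehmannia dose had 206 to 227 CPM for the epithelial, 9.004 to 9.75 CPM for the leukocyte, 5.87 to 6.98 CPM for the oligodendrocyte, 53.2 to 57.2 CPM for the neuron, 0.964 to 1.24 CPM for the endothelial and 7981 to 8198 CPM for the astrocyte and glioma sum. The single high Paeonia library had 209, 10.6, 7.55, 57.8, 1.58 and 7259 CPM for the same sums in the same order. Their part in the ID and SMAD6 differences was not tested.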

How the data were processed

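RNA from 60 libraries of SW1783 cells was sequenced. The authors' deposited values are RSEM expected counts per gene (estimated read counts that need not be whole), on GRCh38, per the submitters' processing notes, which name RSEM 1.3.3, STAR 2.7.3a, FastQC 0.11.9 and Trim Galore 0.6.5. The annotation release and the strand setting are not given in the sources used here, and gene symbols and positions come from GENCODE release 29. The table has 279 columns, of which 219 were not used. Counts were rounded to whole numbers (90.67% already were). Genes passing edgeR's filterByExpr were tested together over the 54 libraries in 19 groups of at least 2, with TMM factors of 0.9356 to 1.028, in edgeR 4.0.16's quasi-likelihood test under R 4.3.3 (35 residual degrees of freedom), with Benjamini-Hochberg adjustment over 17517 genes and a threshold of 0.05. SE is the log2 fold change divided by the square root of F. CPM, counts scaled to a common library size, use TMM factors over all 60 libraries. Single libraries are given as log2 ratios of CPM + 1 with exact Poisson 95% intervals, which cover counting error only, and were not tested. Fitting was checked on simulated counts. Alternatives were DESeq2 1.42.0, RLE factors, library size alone, no filter, a replicate block, only the groups compared, other pseudocounts and each library left out. Likeness was ranked by Pearson r over group means for genes of at least 5 CPM, and up to 4 pathway genes a list were named, those with the largest change among genes called at a high dose and averaging at least 1 CPM in 1 of the groups. A few genes that these rules or lists cover are not reported here. The members, lists and rules were chosen with earlier results of these data known. The series' design text gives a vehicle of 2% DMSO where the sample labels give 0.1%. Among 51 pairs of libraries within replicated groups, no pair was treated as 1 library deposited more than once.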

Additional observations from a re-analysis of the deposited data

Results flagged for a closer look

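The dose effect, high against low, differed between the 2 extracts of a code set in 8 cases, by edgeR's test of the difference itself. Cinnamon minus Astragalus was -1.66 for ID1, -1.36 for ID2, -1.54 for ID3, -2.49 for ID4, -0.96 for SMAD6 and -0.98 for SMAD9 on the log2 scale. Samul minus Sagunja was -0.73 for ID2 and -0.87 for ID3. Both Samul minus Sagunja calls were lost when the fit held the 4 groups compared and no others, with the same values. In groups of 3 or fewer no single library was tested for standing apart.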

How the results depend on the processing

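Of 68 member calls, 45 were kept under every alternative fitted for them and with each of 54 libraries left out, with 0 changes of sign. The 8 calls of high Cinnamon against vehicle were among them. There were 7 alternatives beside left-out libraries, of which the block within each code set was fitted for high against low alone. Members called were 26 at the high dose against vehicle (24 to 30 with a library left out), 9 at the medium dose (6 to 14), 5 at the low dose (3 to 9), 20 for high against low (18 to 24) and 8 for the difference of dose effects (8 to 12), and other pathway genes made 75 calls (57 to 130). When each fit held just the groups being compared, the medium dose had 19, the low dose 11 and the pathway genes 145. Without Sagunja low replicate 1 the medium dose had 14, the low dose 9 and the pathway genes 130, and 23 further member calls were made. Same-numbered libraries deviated together with correlations of -0.148 to 0.144 over 24 comparisons. These were taken over all genes, and a shared effect on part of the genes was not tested. Correlations between same-numbered libraries of different extracts in a set were not computed, so a replicate effect shared across extracts was not tested. In Cinnamon, replicate 1 had the lowest ratio of ID1 to ID3 at the low, medium and high dose (1.42, 1.39 and 1.33). Its ratio of ID2 to ID3 was also lowest at each dose (0.123, 0.116 and 0.119). In Astragalus, replicate 1 had the lowest ID1 to ID3 ratio at the high dose (1.18) and the highest at the low dose (1.52). With the replicate block the calls were 27, 9, 6, 22 and 9, and 80 for the pathway genes, and 23 for high against low with the block set within each code set. The cause of these shifts was not tested. With 1 library a dose, Paeonia and Angelica allow no test, and ID4 rests on few counts.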
